A study of Mus musculus with 12 samples.

Results

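The naive pluripotency factors described here are 10 mouse genes that encode transcription factors: *Nanog*, *Klf2*, *Klf4*, *Klf5*, *Tfcp2l1*, *Esrrb*, *Zfp42*, *Tbx3*, *Nr0b1* and *Prdm14*. They were chosen by name and found by matching the Ensembl identifiers of the deposited count table to gene symbols, which gave 10 of 10 members among 45706 genes. All 10 passed the filter on low counts and were tested with 17003 genes in all. *Tfcp2l1*, *Nr0b1* and *Prdm14* passed it only through NSC and NR, the groups in which they were high, while the 7 others would also have passed it on their NPC and NPC(+) libraries. With only NPC and NPC(+) fitted, these 3, *Nanog* and *Zfp42* did not pass. *Prdm14* reached the cutoff of the filter in 2 NSC and 3 NR libraries, and would not have passed without NR.

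Naive pluripotency is the state of the mouse preimplantation epiblast and of embryonic stem cells (ESCs) kept in LIF, in which a mutually supporting set of transcription factors holds cells undifferentiated. LIF acts through its receptor, Jak kinases and Stat3 on *Klf4* and *Tfcp2l1* among others, and the set is switched off as cells move to the primed state and on to the germ layers, including neural ectoderm. Several members also work outside pluripotent cells: *Klf4* in epithelia and in cell cycle arrest, *Klf2* in endothelium and lymphocytes, *Tbx3* in limb and other organs, and *Nr0b1* in adrenal gland and gonad.

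The count table covers 4 groups with 3 RNA libraries each, and all groups were derived from C57BL/6 ESCs that carry GFP knocked into 1 allele of *Sox1*, an early neural stem cell factor. NPC were neural progenitor cells that the labels call baseline, *Sox1*-negative glial progenitors and give as unsorted. NPC(+) were *Sox1*-positive glial progenitors, sorted after dCas9-VP64, an inactive Cas9 fused to a viral activator, had been directed to the *Sox1* promoter. The libraries labelled NSC came from unsorted neuroepithelial cells grown as neural stem cells, and those labelled NR from neural rosettes, neuroepithelial cells sorted for GFP. Lines with dCas9-VP64 were clonal, grown from single cells, so a difference between NPC(+) and NPC can include a difference between clones. Sorting went with the group in NPC(+) against NPC, NR against NSC, NR against NPC and NSC against NPC(+). In these comparisons the part of the sort and that of the cell state cannot be told apart.

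Library totals ran from 4939268 to 18351483 counts for NPC, from 3407066 to 6315574 for NPC(+), from 29046205 to 43095688 for NSC and from 16707006 to 34594885 for NR. Levels are given as counts per 1000000 (CPM) on library sizes scaled by the trimmed mean of M values. A count of 3 stood on average for 0.408 CPM in the NPC libraries, for 0.613 in NPC(+), for 0.0874 in NSC and for 0.122 in NR. The members with low levels were thus measured least precisely in NPC and NPC(+). *Sox1*, the targeted gene, was at 4.83, 6.00 and 5.43 CPM in NPC and at 20.3, 20.9 and 21.7 in NPC(+). It was at 48.6, 64.9 and 51.8 CPM in the libraries labelled NSC and at 4.62, 20.001 and 19.2 in those labelled NR. The GFP-sorted NR libraries were thus all below the unsorted NSC libraries for *Sox1*, against their label, and NR replicate 1 was below all NPC libraries, so groups are called by their labels throughout. Whether these labels were exchanged, or the sort did not enrich cells with *Sox1*, was not tested, and each value of NR against NSC holds for the libraries as labelled.

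All 10 members were higher in the libraries labelled NR than in those labelled NSC, where 29.5% of all genes tested were higher and 25.8% lower. For 9 of them, all but *Klf4*, the difference was over 4-fold, which held for 7.34% of all genes. The members' median log2 fold change was 3.79 against 0.01 over all genes tested. *Prdm14* passed the filter only through NR, so its part in these counts supports nothing. Of the 7 members that would have passed without NSC and NR, 7 were higher in NR than in NSC. The difference was over 4-fold for 6 of them, and their median was 3.78. In NPC and NPC(+) most members were near the limit of detection, and *Klf4*, *Klf2*, *Tbx3* and *Klf5* made up most of what was there. Between these 2 groups 1 member was higher in NPC(+), *Klf2*, where 21.6% of all genes were higher, and 1 was lower, *Klf4*, where 22.7% were lower. *Klf4* was lower by over 4-fold, which held for 1.92% of all genes, and the members' median log2 fold change was 0.38 against 0 over all genes. This median includes *Nr0b1* and *Prdm14*, with 5 counts or fewer in all in each of these groups, so no shift of the set is read from it. A gene counts as higher or lower throughout at an adjusted p below 0.1 and a p below 0.05 in the quasi-likelihood F test of edgeR, with p adjusted after Benjamini and Hochberg over all 17003 genes.

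**Figure D1:**
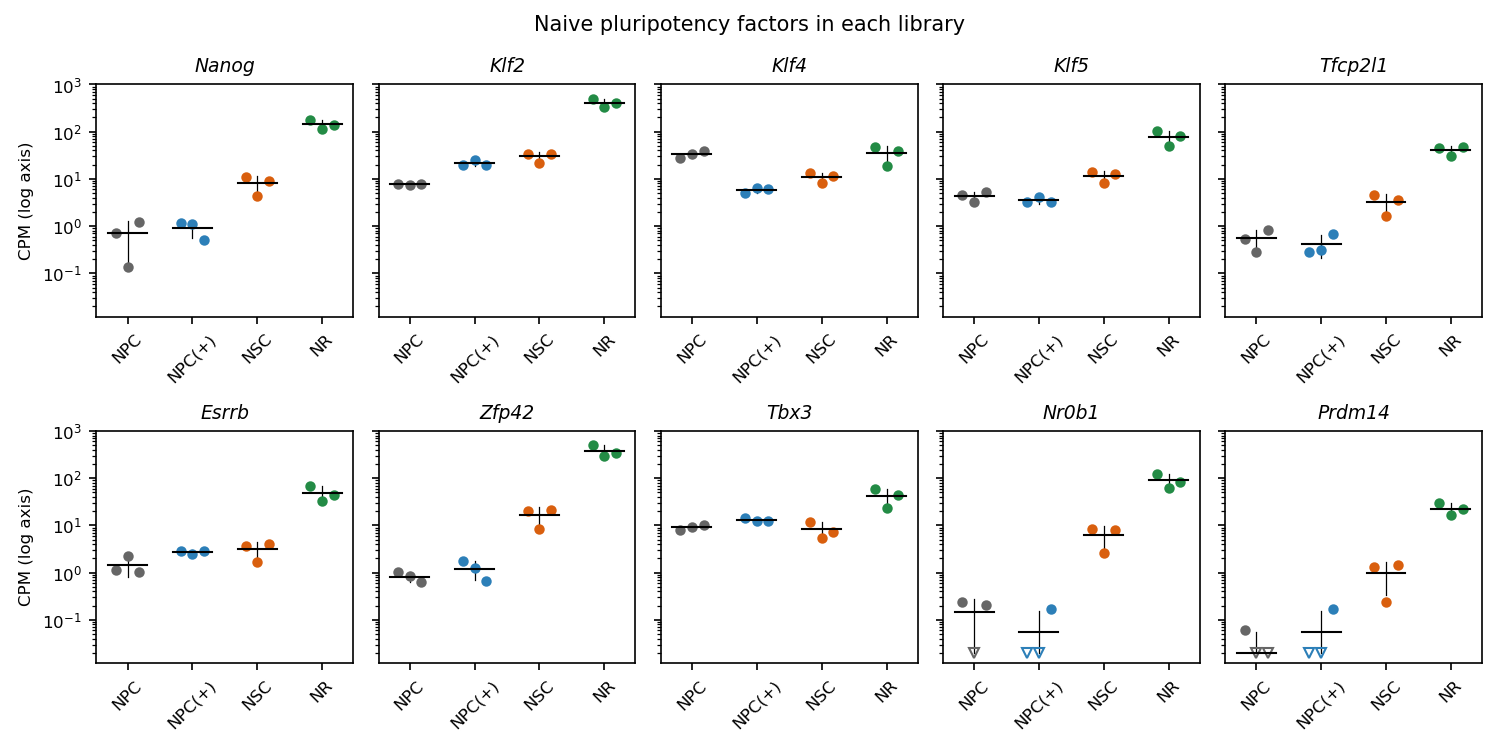
CPM of each member (log axis) in the 3 libraries of each group. Points are libraries, horizontal lines group means and vertical lines 1 SD, cut off at the bottom where they pass below it; open triangles at the bottom are libraries with 0 counts. All 3 NR libraries lie above all NSC libraries in every panel, and *Klf4* is the panel in which NPC reaches the NR level.

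The 3 members that passed the filter only through NSC and NR had to differ from NPC and NPC(+), so counts with them support nothing and those over the 7 others are given as well. Against NPC, 8 members were higher in the libraries labelled NSC, where 42.7% of all genes were higher, and 5 of these by over 4-fold (*Nanog*, *Tfcp2l1*, *Zfp42*, *Nr0b1* and *Prdm14*, against 19.1% of all genes). *Klf4* was lower, as were 32.5% of all genes, and *Tbx3* did not pass the test. Among the 7 others 5 were higher, 2 of them by over 4-fold (*Nanog* and *Zfp42*). The libraries labelled NR held 9 members higher than NPC, all 9 over 4-fold, where 44.2% of all genes were higher and 22.0% higher by over 4-fold. No member was lower there (32.8% of all genes were), and *Klf4* did not pass the test. Among the 7 others 6 were higher, all 6 by over 4-fold. Against NPC(+), 8 members were higher in NSC (39.9% of all genes) and 0 lower (30.0% of all genes), while 10 were higher in NR (42.9% of all genes) and 0 lower (30.8% of all genes). Among the 7 others 5 were higher in NSC and 7 in NR. The counts of 0 members lower were also 0 at an unadjusted p below 0.05 and in DESeq2, but for NSC against NPC(+) the count became 1, *Tbx3*, under several other settings. These comparisons share libraries, the same NPC or NPC(+) libraries standing on one side of several of them, so they are not independent of each other. Because so many genes differed between these cell types, the counts of members at the plain threshold are to be read against those shares. In bulk RNA a larger part of cells expressing a gene and more RNA per cell cannot be told apart.

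Promoter sequence was matched for 7 of the 10 members in RefSeq (build GRCm38.p6), and the windows of 250 bases before the start of transcription are shown for 4 that cover the range of responses: *Nanog* and *Zfp42*, with large differences of NR from NSC, *Tfcp2l1*, a target of Stat3, and *Klf4*, the member with the smallest difference there. Bases within an annotated exon were trimmed. *Klf5*, *Tbx3* and *Prdm14* had no entry. Capitals mark matches to the octamer core TTTGCAT, the Sox core ACAATG or the Krüppel-like box GGGNGTGG, on either strand. The strand of each gene is printed 5′ to 3′: *Nanog* from chr6:122707239-122707488 (plus), *Zfp42* from chr8:43307010-43307259 (minus), *Tfcp2l1* from chr1:118627695-118627944 (plus) and *Klf4* from chr4:55532476-55532725 (minus).
Nanog: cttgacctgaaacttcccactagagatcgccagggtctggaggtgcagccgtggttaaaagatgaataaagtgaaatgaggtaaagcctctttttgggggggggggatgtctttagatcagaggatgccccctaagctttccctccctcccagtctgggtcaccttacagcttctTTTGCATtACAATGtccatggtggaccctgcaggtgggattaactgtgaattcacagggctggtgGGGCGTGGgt
Zfp42: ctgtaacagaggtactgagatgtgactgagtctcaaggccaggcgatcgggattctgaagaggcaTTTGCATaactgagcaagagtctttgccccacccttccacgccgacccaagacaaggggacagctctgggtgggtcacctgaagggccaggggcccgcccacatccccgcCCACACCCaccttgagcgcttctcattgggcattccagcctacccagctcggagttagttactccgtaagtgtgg
Tfcp2l1: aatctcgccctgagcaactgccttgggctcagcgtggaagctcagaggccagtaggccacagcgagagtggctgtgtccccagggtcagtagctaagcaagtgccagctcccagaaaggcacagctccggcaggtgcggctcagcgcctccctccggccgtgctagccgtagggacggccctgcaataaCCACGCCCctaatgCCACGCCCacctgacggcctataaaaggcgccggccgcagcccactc
Klf4: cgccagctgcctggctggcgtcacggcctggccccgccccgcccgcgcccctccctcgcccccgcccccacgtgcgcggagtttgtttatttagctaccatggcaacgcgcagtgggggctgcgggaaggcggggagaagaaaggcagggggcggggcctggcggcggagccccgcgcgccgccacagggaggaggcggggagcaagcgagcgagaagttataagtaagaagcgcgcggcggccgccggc

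The *Nanog* window held the octamer core and the Sox core next to each other, 1 base apart, and a Krüppel-like box near its end. *Zfp42* held an octamer core and, on the opposite strand, a Krüppel-like box. *Tfcp2l1* held 2 Krüppel-like boxes on the opposite strand, and *Klf4*, *Klf2*, *Esrrb* and *Nr0b1* held no match to these motifs. Over 32851 promoter windows, 4.12% held the octamer core, 10.7% the Sox core and 15.9% the Krüppel-like box. The Esrrb element AAGGTCA (4.08% of windows) and the Stat site TTCCNGGAA (0.913%) were also searched on both strands and were in none of the members' windows. The windows also differed in CpG dinucleotides, with 32 in *Klf4* and 28 in *Klf2* but 3 in *Nanog* and 9 in *Zfp42*, against a median of 6 over all windows. A match is a description of letters and does not show a bound site. The octamer and Sox motifs were shortened after the sequences were seen, so the shares over all windows are no test of their matches.

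*Nanog* is a homeobox factor at the centre of the pluripotency network (chr6:122707489-122714633 on the plus strand, GENCODE annotation of GRCm38, from which all gene positions here are taken). All members are protein-coding genes. *Nanog* was at 0.716, 0.140 and 1.25 CPM in NPC and at 1.16, 1.099 and 0.500 in NPC(+). It was at 10.9, 4.42 and 9.17 CPM in NSC and at 180.5, 113 and 141 in NR. The 2 glial progenitor groups overlapped, every NSC library was above both, and every NR library was above every NSC library. The log2 fold change of NR against NSC was 4.14 (SE 0.29, adjusted p = 5.95e-07, edgeR quasi-likelihood F test with Benjamini-Hochberg adjustment), and that of NSC against NPC 3.62 (SE 0.49, adjusted p = 1.28e-05). For NPC(+) against NPC it was 0.42 with an SE of 0.87, which leaves a 4-fold change in NPC(+) within its 95% interval of -1.28 to 2.12.

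*Zfp42*, also known as Rex1 (chr8:43295063-43306980 on the minus strand), encodes a zinc finger protein and is a common reporter of the naive state. Its level was 1.01, 0.837 and 0.626 CPM in NPC and 1.74, 1.26 and 0.667 in NPC(+). In NSC it was 20.6, 8.53 and 21.7 CPM, and in NR it was 511, 293 and 347. It had the largest log2 fold change of NR against NSC among the members, 4.49 (SE 0.30, adjusted p = 3.50e-07, edgeR quasi-likelihood F test), with the groups apart in every library. Against NPC its log2 fold change was 8.73 in NR (SE 0.45) and 4.24 in NSC (SE 0.49, adjusted p = 2.91e-06).

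*Prdm14* (chr1:13113457-13127163 on the minus strand), a PR domain factor that represses differentiation signals and DNA methylation in naive cells and germ cells, was the lowest member in NPC and level with *Nr0b1* in NPC(+). It had 1 count in all in NPC and 1 in NPC(+), 0.0597 CPM in NPC replicate 1 and 0.167 CPM in NPC(+) replicate 3, with 0 counts in the 4 other libraries. In NSC it was at 1.30, 0.242 and 1.46 CPM and in NR at 30.2, 16.2 and 21.9. It was therefore at or under the floor of 3 counts in both glial progenitor groups, and no fold change is given between them. The ratio of NR to NPC was 614 with a counting interval of 110.1 to 24266 (exact, 95%), that of NSC to NPC 30.5 (5.36 to 1214), and the log2 fold change of NR against NSC 4.46 (SE 0.44, adjusted p = 5.46e-06, edgeR quasi-likelihood F test). Such intervals cover counting error only. *Prdm14* passed the filter only through NR, so its ratios to NPC and its fold change of NR against NSC are descriptions.

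Among the nuclear receptors, *Nr0b1*, also known as Dax1 (chrX:86191764-86195947 on the plus strand), encodes a receptor without a DNA-binding domain that acts as a corepressor and binds Oct4 in ESCs. It was at 0.239, 0 and 0.209 CPM in NPC and 0, 0 and 0.167 in NPC(+), from 5 counts and 1 count in all. In NSC it was at 8.59, 2.62 and 7.83 CPM and in NR at 124, 61.7 and 83.7. Its ratio of NR to NPC was 479 (counting interval 205 to 1475) and that of NSC to NPC 38.7 (16.5 to 119), and its log2 fold change of NR against NSC was 3.80 (SE 0.37, adjusted p = 4.74e-06, edgeR quasi-likelihood F test). The ratio of NR to NPC(+) was 1319, with an interval of 237 to 52087, since it rests on the single count in NPC(+). *Nr0b1* also passed the filter only through NSC and NR, so its ratios to NPC and NPC(+) are descriptions.

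*Esrrb* (chr12:86361117-86521628 on the plus strand), an orphan receptor that sustains self-renewal downstream of Wnt signalling, was at 1.13, 2.23 and 1.04 CPM in NPC and at 2.90, 2.51 and 2.84 in NPC(+). In NSC it was at 3.69, 1.66 and 4.05 CPM and in NR at 69.3, 32.7 and 43.9. The NPC(+) libraries were all above the NPC libraries, with 43 and 40 counts in all, and NSC overlapped both. NPC(+) against NPC had a log2 fold change of 0.93 (SE 0.53) and did not pass the test (adjusted p = 0.197, edgeR quasi-likelihood F test), but it passed when only these 2 groups were fitted (adjusted p = 0.0162). NSC against NPC gave 1.14 (SE 0.43, adjusted p = 0.0287), a call that was lost without NSC replicate 3 (0.94), without NPC replicate 1 (0.85), without NPC replicate 3 (1.05) or with all libraries thinned to one total (1.08). NR against NSC gave 3.94 (SE 0.33, adjusted p = 1.78e-06).

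*Tfcp2l1* (chr1:118627945-118685168 on the plus strand), a Grainyhead-family factor activated by LIF and Stat3, was at 0.537, 0.279 and 0.835 CPM in NPC and at 0.290, 0.314 and 0.667 in NPC(+). It was at 4.63, 1.66 and 3.63 CPM in NSC and at 46.1, 31.3 and 48.0 in NR. The glial progenitor groups overlapped, and both were below every NSC and NR library. Its log2 fold change of NR against NSC was 3.64 (SE 0.31, adjusted p = 1.75e-06, edgeR quasi-likelihood F test). That of NSC against NPC was 2.66 (SE 0.48), a description only, since *Tfcp2l1* passed the filter only through NSC and NR.

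The 3 Krüppel-like members, zinc finger factors that bind GC-rich boxes and stand in for each other in ESC self-renewal, did not move together. *Klf4* (chr4:55527143-55532466 on the minus strand), which is also known as a factor used in reprogramming, was at 28.0, 33.5 and 39.0 CPM in NPC and at 4.92, 6.44 and 6.00 in NPC(+). In NSC it was at 13.2, 8.36 and 11.4 CPM and in NR at 47.7, 18.6 and 39.8. NPC stood above NPC(+) and NSC in every library, and NR overlapped NPC. NPC(+) against NPC had a log2 fold change of -2.50 (SE 0.34, adjusted p = 5.88e-05, edgeR quasi-likelihood F test), a level 5.64-fold lower, and leaving out any 1 library kept it between -2.59 and -2.39. *Klf4* was also lower in NSC than in NPC, by a log2 fold change of -1.59 (SE 0.28, adjusted p = 1.70e-04), and higher in NR than in NSC, by 1.68 (SE 0.28, adjusted p = 2.53e-04). For NR against NPC the value was 0.09 (SE 0.27, 95% interval -0.45 to 0.62), and without NR replicate 2, the lowest of its group, it passed the test at 0.40 (adjusted p = 0.0614). NSC against NPC(+) gave 0.91 (SE 0.34, adjusted p = 0.0287), a call lost without NSC replicate 1 (0.74) or NPC(+) replicate 1 (0.78).

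*Klf2* (chr8:72319033-72321656 on the plus strand) went the other way in NPC(+). It was at 7.82, 7.39 and 7.72 CPM in NPC and at 19.98, 25.1 and 20.2 in NPC(+), with no overlap. In NSC it was at 34.1, 21.96 and 33.6 CPM and in NR at 491, 336 and 405. NSC overlapped NPC(+), and NR was above all other libraries. NPC(+) against NPC gave a log2 fold change of 1.52 (SE 0.22, adjusted p = 1.06e-04, edgeR quasi-likelihood F test), with 1.38 to 1.58 when any 1 library was left out, NSC against NPC 1.97 (SE 0.20, adjusted p = 8.29e-07) and NR against NSC 3.78 (SE 0.18, adjusted p = 3.82e-08). The difference of NSC from NPC(+) was small, 0.45 (SE 0.18, adjusted p = 0.0438), and its call was lost without NSC replicate 1 (0.33), NSC replicate 3 (0.35), NPC replicate 1 (0.41), NPC(+) replicate 1 (0.36) or NPC(+) replicate 3 (0.40).

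*Klf5* (chr14:99298691-99315036 on the plus strand) was at 4.65, 3.21 and 5.22 CPM in NPC and at 3.18, 4.24 and 3.17 in NPC(+), which overlapped. It was at 13.9, 8.25 and 12.7 CPM in NSC and at 102.5, 49.6 and 81.6 in NR, each group apart from the others. NPC(+) against NPC gave -0.28 (SE 0.39, 95% interval -1.03 to 0.48) on the log2 scale, NSC against NPC 1.42 (SE 0.29, adjusted p = 6.20e-04, edgeR quasi-likelihood F test) and NR against NSC 2.73 (SE 0.25, adjusted p = 3.39e-06).

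*Tbx3* (chr5:119670669-119684724 on the plus strand), a T-box repressor that in ESCs responds to the PI3K side of LIF signalling, was the member with the most even level across NPC, NPC(+) and NSC. It was at 7.94, 9.35 and 10.4 CPM in NPC and at 14.5, 12.6 and 12.5 in NPC(+), and at 12.0, 5.32 and 7.35 in NSC. In NR it was at 57.8, 23.4 and 44.6 CPM. The NPC(+) libraries were all above those of NPC and of NSC, and NSC overlapped NPC. NPC(+) against NPC had a log2 fold change of 0.53 (SE 0.36, adjusted p = 0.278, edgeR quasi-likelihood F test) and passed when only these 2 groups were fitted (adjusted p = 0.00304), while NSC against NPC gave -0.13 (SE 0.33, 95% interval -0.78 to 0.52). NSC against NPC(+) gave -0.66 (SE 0.33, adjusted p = 0.0947, edgeR quasi-likelihood F test, missing only the threshold on the unadjusted p), and it passed without NSC replicate 1 (-1.06), NR replicate 1 (-0.68) or NR replicate 2 (-0.65). NR against NSC gave 2.34 (SE 0.31, adjusted p = 5.27e-05).

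**Figure D2:**
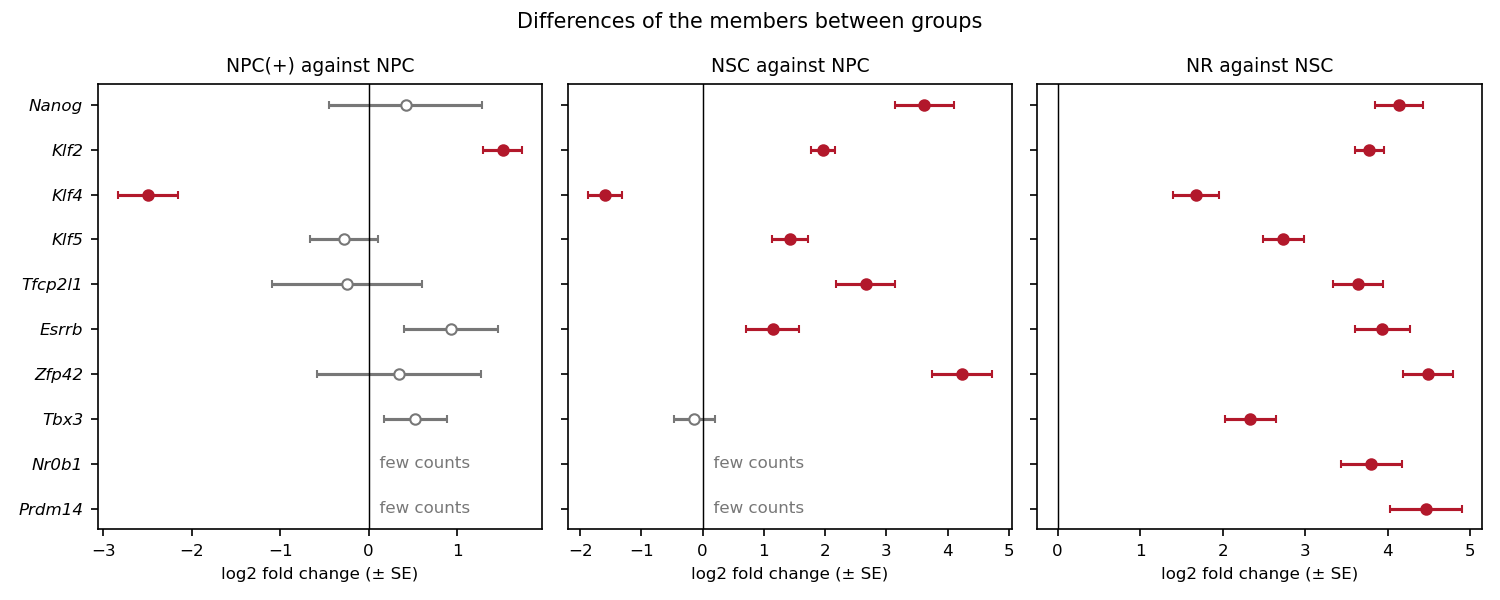
Log2 fold change of each member (points) with 1 SE (bars) for 3 comparisons; filled red points passed the test, open grey points did not. *Nr0b1* and *Prdm14* are marked as having few counts where a group held 5 counts or fewer in all. *Tfcp2l1* passed the filter only through NSC and NR, so its point for NSC against NPC is a description. *Prdm14* passed it only through NR, so its point for NR against NSC is a description. *Klf4* is the only member below 0 past the test in the first 2 panels, and all members lie above 0 in the third, *Klf4* nearest to it at 1.68.

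The genes around *Klf4* gave smaller falls in NPC(+) than *Klf4* itself. Among 23 expressed neighbours within 5 Mb on chromosome 4 the log2 fold changes of NPC(+) against NPC ran from -1.61 to 2.27 with a median of -0.31, and 0 of the 23 were below *Klf4*. Around *Klf2* on chromosome 8, 93 neighbours had a median of -0.11, and 91 of the 93 were below *Klf2*. Values of neighbours are descriptions, with no test.

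The order of the members by level per kilobase of annotated exon differed between the groups. In NPC *Klf4* led with a mean of 10.99 CPM per kb, before *Klf2* at 4.14 and *Tbx3* at 1.39. In NPC(+) *Klf2* led with 11.8 CPM per kb, before *Tbx3* at 1.99 and *Klf4* at 1.90, and the libraries of the latter pair overlapped. In NR *Klf2* and *Zfp42* led with 222 and 204 CPM per kb, followed by *Nanog* at 64.6, *Nr0b1* at 49.6, *Klf5* at 15.0 and *Klf4* at 11.6. *Prdm14*, *Esrrb*, *Tbx3* and *Tfcp2l1* followed with 8.87, 8.04, 6.33 and 4.43 CPM per kb. Neighbours in the NR order overlapped in their libraries, except *Zfp42* with *Nanog* and *Nr0b1* with *Klf5*. *Klf4* was thus the highest in NPC and the sixth in NR, at 10.99 and 11.6 CPM per kb.

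The NSC level of a member can be given as a percent of its NR level. For 7 members this share lay between 4.40% (*Prdm14*) and 7.91% (*Tfcp2l1*): *Zfp42* had 4.43%, *Nanog* 5.63%, *Esrrb* 6.44%, *Nr0b1* 7.07% and *Klf2* 7.29%. It was higher for *Klf5* at 14.9%, *Tbx3* at 19.6% and *Klf4* at 31.1%, and whether these differ from the 7 was not tested. These are also 3 of the members with a level of over 3 CPM in NPC, as is *Klf2*. For 12 other genes of pluripotent cells the share ran from 2.25% (*Dppa3*) to 16.1% (*Gdf3*), with a median of 6.22% against 7.18% for the members.

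**Figure D3:**
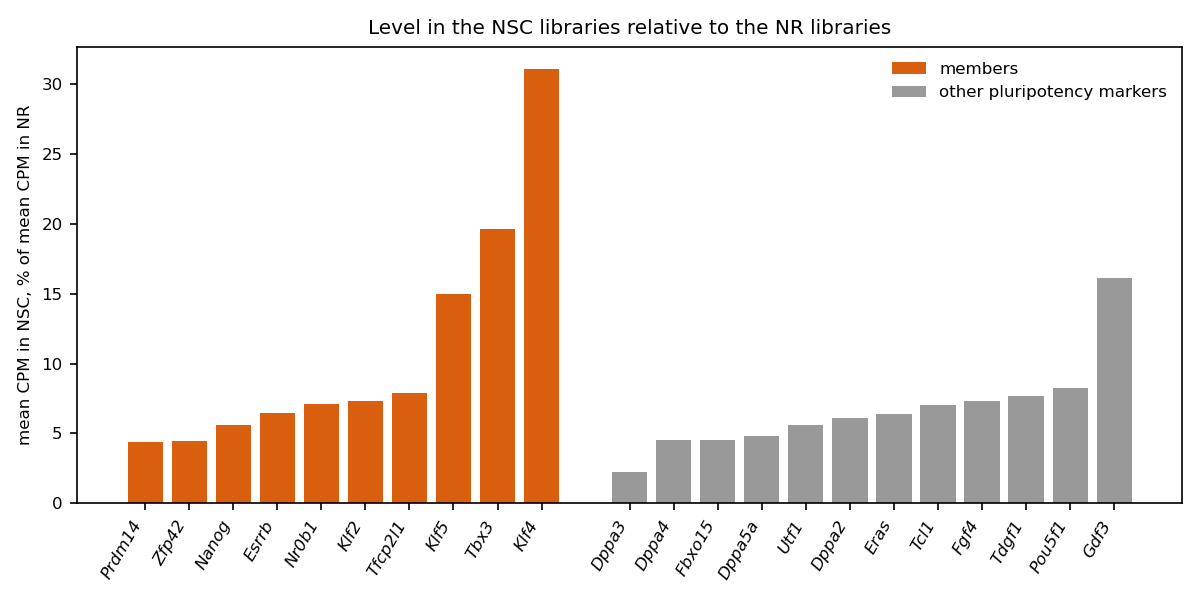
Mean CPM in the 3 libraries labelled NSC as a percent of the mean CPM in the 3 labelled NR, for the 10 members (orange) and 12 other pluripotency markers (grey). *Klf5*, *Tbx3* and *Klf4* stand at 14.9%, 19.6% and 31.1%, and the other members between 4.40% and 7.91%.

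Within NSC and NR the members moved together from library to library. NSC replicate 2 was the lowest NSC library for 10 of 10 members (42.2% of tested genes were lowest there), and NR replicate 2 was the lowest NR library for 10 of 10 (38.4% of tested genes). NR replicate 1 was the highest for 9 members (44.0% of tested genes), all but *Tfcp2l1*, and it was also the library with the least *Sox1*. In the glial progenitors the members did not share a lowest library: the 3 NPC libraries were lowest for 2, 6 and 2 members and the 3 NPC(+) libraries for 5, 1 and 4. Leaving out any 1 library left 10 members higher in NR than in NSC, with the log2 fold change of *Klf4* between 1.40 and 1.98 and that of *Zfp42* between 4.16 and 4.67. With the replicate numbers as a block 10 members were again higher.

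Over the 12 libraries *Nanog*, *Klf5*, *Tfcp2l1*, *Zfp42*, *Nr0b1* and *Prdm14* had a Pearson correlation of log2 CPM of 0.96 to 0.99 with each other. *Klf4* had 0.29 (to *Klf2*) to 0.52 (to *Klf5*) with the other members. The libraries fall into 4 groups of very different level and depth, so these values describe group means and carry no test. Among 17002 other genes 46 had a correlation over 0.9 with *Klf4* and 64 with *Tbx3*, against 748 to 1998 for the other members. The genes most like each member over these libraries were *Dppa2*, *Rbmxl2* and *Triml1* for *Nanog* (0.98 to 0.99), *Dnmt3l*, *Esrp1* and *Acp5* for *Zfp42* (0.99), *Dazl*, *Pla2g10* and *Tmem92* for *Prdm14* (0.99 to 1.00), and *Zscan10*, *Dsg2* and *8030474K03Rik* for *Nr0b1* (0.99). They were *Ddx58*, *Klf9* and *Nlrp4f* for *Esrrb* (0.98), *Gm13119*, *Agtrap* and *Sohlh2* for *Tfcp2l1* (0.99), and *Pml*, *Triml1* and *Magea4* for *Klf5* (0.99). *Klf2* was most like *Rest*, *Cndp2* and *Manba* (0.99), *Tbx3* most like *Urgcp*, *Trip12* and *Nexmif* (0.96 to 0.97), and *Klf4* most like *Tor3a*, *Zwilch* and *Ubald1* (0.95 to 0.96).

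The LIF receptor and Stat3 branch lies upstream of several members. Of its 10 genes 5 were higher and 2 lower in NPC(+) than in NPC, 7 higher and 3 lower in NSC than in NPC, 6 higher and 3 lower in NR than in NPC, and 3 higher and 3 lower in NR than in NSC (median log2 fold change 0.05 against 0.01 over all genes). *Lif*, the ligand, was at 0.179, 0.977 and 0 CPM in NPC and at 1.45, 4.08 and 3.00 in NPC(+), a log2 fold change of 3.03 (SE 0.71, adjusted p = 0.00375, edgeR quasi-likelihood F test) in which all NPC(+) libraries were above those of NPC, from 10 and 49 counts in all. *Stat3* fell by 0.36 on the log2 scale in NPC(+) (SE 0.11, adjusted p = 0.0195), from a mean of 441 to 342 CPM, and was at 75.8 CPM in NSC and 87.0 in NR. *Socs3*, a Stat3 target, was at 10.6 CPM in NPC and 10.9 in NPC(+), against 73.0 in NSC and 40.8 in NR.

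Of 12 other naive-state genes 11 were higher and 0 lower in NR than in NSC, with a median log2 fold change of 3.87, the exception being *Tet2* at 0.10. Again 11 were higher in NSC than in NPC and in NR than in NPC (42.7% and 44.2% of all genes were), with 0 lower in either. Most of the naive-state genes, and *Pou5f1* and *Otx2* of the list below, were near the floor in NPC. They could pass the filter only through NSC and NR, so their counts against NPC support nothing. *Dppa5a*, a marker of undifferentiated cells, had a mean of 3.47 CPM for NPC, 2.95 for NPC(+), 59.3 for NSC and 1232 for NR. *Dppa3*, which protects maternal methylation in the early embryo, had the largest of these differences, with a log2 fold change of 5.47 in NR against NSC (adjusted p = 1.18e-09, edgeR quasi-likelihood F test). In NPC(+) against NPC 1 of the 12 was higher, *Zfp57* at 0.98, and 1 lower, *Tet2* at -0.996. The core and primed genes numbered 10, of which 7 were higher and 1 lower in NR than in NSC (median 1.61), 9 higher and 1 lower in both NSC and NR than in NPC, and 1 higher and 1 lower in NPC(+) than in NPC. *Pou5f1*, which encodes Oct4, had means of 0.212, 0.316, 8.34 and 101 CPM in NPC, NPC(+), NSC and NR, and primed genes rose too, *Fgf5* by 2.73 and *Otx2* by 2.11 on the log2 scale in NR against NSC. *Sox2*, shared by neural and pluripotent cells, was the gene that fell in all of these comparisons, by 1.80 on the log2 scale in NPC(+) against NPC. Among 6 regulators of exit from the naive state 0 were higher and 2 lower in NPC(+), *Tcf7l1* and *Flcn*, 4 higher and 2 lower in NSC than in NPC and in NR than in NPC, and 5 higher and 0 lower in NR than in NSC (median 0.32).

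Other Krüppel-like factors moved in both directions. Of 15 listed 14 were found, all but *Klf18*, and 13 were tested. In NPC(+) against NPC 4 were higher (*Klf9*, *Klf10*, *Klf14* and *Klf16*) and 4 lower (*Klf3*, *Klf11*, *Klf13* and *Klf15*), with a median log2 fold change of -0.10, or -0.04 with genes at 0 in a group set to the level of 3 counts. Their falls were at most 0.93 on the log2 scale, for *Klf11* and *Klf13*. *Klf14* had 0 counts in all NPC libraries and 3, 10 and 6 in NPC(+). *Klf9* was at 7.16, 6.42 and 4.59 CPM in the NPC libraries and at 13.6, 13.0 and 16.5 in NPC(+). It was at 13.9, 7.80 and 15.0 CPM for NSC and at 117, 77.0 and 87.8 for NR, the same order of NPC(+) and NR as *Klf2*. In NSC against NPC 5 of the 13 were higher and 8 lower, in NR against NPC 5 and 7, and in NR against NSC 6 and 3 (median 0.57).

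**Figure D4:**
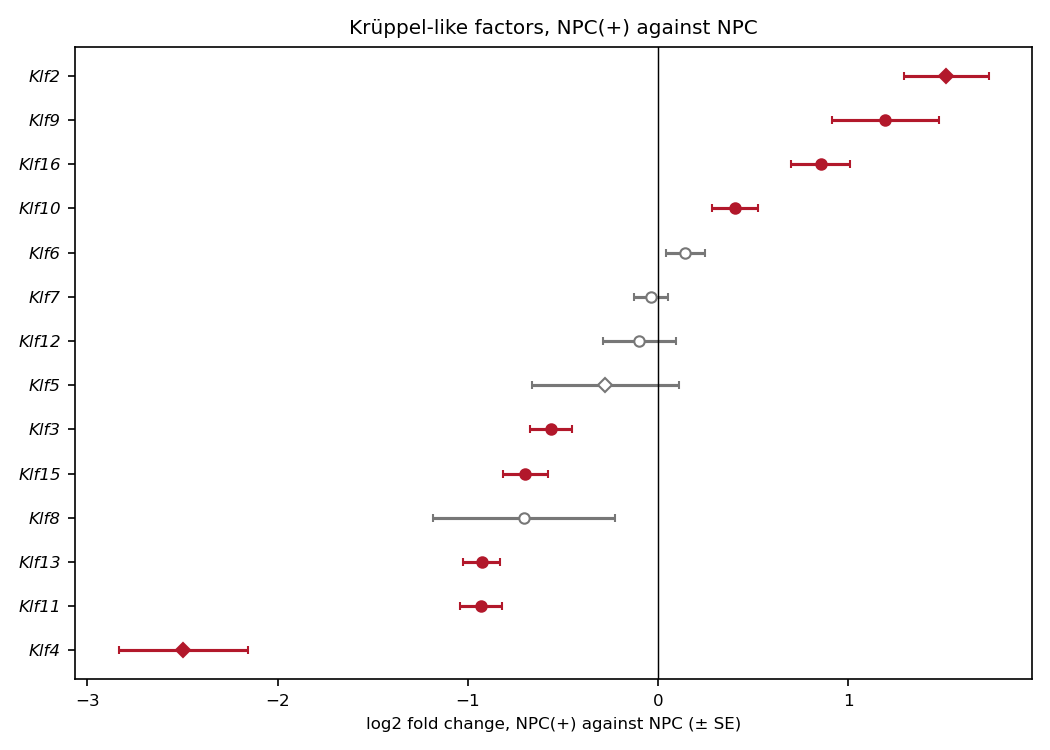
Log2 fold change of NPC(+) against NPC (points) with 1 SE (bars) for the Krüppel-like factors with a count in both groups; diamonds are the members *Klf2*, *Klf4* and *Klf5*, filled red symbols passed the test and open grey ones did not. *Klf2* at 1.52 and *Klf4* at -2.50 stand at the ends of the genes shown. *Klf14*, with 0 counts in NPC, and *Klf1*, with 0 in NPC(+), are not drawn.

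Relatives of the other members gave mixed counts. Of 8 other T-box and nuclear receptor genes 5 were tested, of which 3 were higher and 0 lower in NPC(+) than in NPC, 3 and 2 in NSC than in NPC, 4 and 1 in NR than in NPC, and 2 and 1 in NR than in NSC (median 0.37). *Nr5a2*, which can activate *Pou5f1* in naive cells, was the largest of these in NR against NSC at 3.87. Of 9 paralogs of *Tfcp2l1*, *Zfp42* and *Prdm14* 8 were tested, with 0 higher and 4 lower in NPC(+) than in NPC, 3 and 4 in NSC than in NPC, 4 and 3 in NR than in NPC, and 4 and 2 in NR than in NSC (median 0.73). *Grhl1*, a Grainyhead factor of epithelia, had the largest fall of the 4 in NPC(+) and was at 2.86, 3.07 and 3.13 CPM in NPC and 0.579, 0.628 and 1.00 in NPC(+), a log2 fold change of -1.98 (SE 0.36, adjusted p = 6.57e-04, edgeR quasi-likelihood F test).

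Lists of cell type markers moved in both directions between NSC and NR. Of 12 other markers of pluripotent cells 12 were higher and 0 lower in NR than in NSC, where 29.5% of all genes were higher. The same counts were found for NSC and for NR against NPC, where 42.7% and 44.2% of all genes were higher. Most of the 12 were near the floor in NPC, such as *Gdf3* with at most 1 count in a library and *Dppa2*, *Fgf4* and *Eras* with at most 3. Genes this low could pass the filter only through NSC and NR, so the counts against NPC support nothing. The summed level of the 12 was 5.01 to 6.80 CPM over the NPC libraries, 6.44 to 8.67 over NPC(+), 69.3 to 177 over NSC and 1668 to 3157 over NR. The members' sum was 52.2 to 66.4, 46.9 to 53.5, 63.0 to 123 and 976 to 1659 CPM. The 5 defining markers of neural progenitors (*Sox1*, *Sox2*, *Nes*, *Pax6* and *Fabp7*) were 0 higher and 5 lower in NR than in NSC, with sums of 1046 to 1504 CPM in NSC and 315 to 604 in NR, but 683.5 to 743 in NPC(+) and 1163 to 1207 in NPC. None of the 5 was at 0 in any group. In NPC(+) 2 of them were higher than in NPC and 3 lower, in NSC 3 and 2, and in NR 2 and 3. Their part in the differences of the members was not tested.

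The mesoderm and endoderm list had 7 of 8 tested genes higher and 1 lower in NR than in NSC, with sums of 41.4 to 57.6 CPM in NSC and 102 to 151 in NR (3 higher, 0 lower in NPC(+) against NPC, 4 and 2 in NSC, 7 and 0 in NR). *T*, a gene of the primitive streak, was at means of 2.27 CPM in NSC and 43.04 in NR. The list of surface ectoderm and simple epithelium, which shares *Grhl2* with the paralogs and whose keratins are also made by cells other than surface ectoderm, had 6 of 8 higher and 0 lower in NR than in NSC, at 214 to 282 CPM in NSC and 903 to 1299 in NR, against 7.94 to 10.6 in NPC (0 and 0 in NPC(+) against NPC, 7 and 1 in NSC, 7 and 1 in NR). For endothelium 3 of 4 were higher and 0 lower, with sums of 7.63 to 11.6 CPM in NSC and 75.1 to 135 in NR, of which *Pecam1*, also made by ESCs, took a mean of 91.2 CPM in NR, while *Cdh5* was at 1.18 and 0 of the 6 listed genes were at 0 in all NR libraries (1 and 0 in NPC(+) against NPC, 4 and 0 in NSC, 4 and 0 in NR). Mesenchyme and neural crest genes were 2 higher and 1 lower of 9 in NR against NSC, at 1456 to 1925 CPM in NSC and 1342 to 4846 in NR, but at 36.3 to 43.4 CPM in NPC and NPC(+) (0 and 0 in NPC(+) against NPC, 7 and 0 in NSC, 8 and 0 in NR). Neuron markers were 0 higher and 3 lower of 4 in NR against NSC, at 383 to 473 CPM in NSC and 254 to 359 in NR, and 4 of 4 were higher than in NPC in both (1 higher, 0 lower in NPC(+)). Glia markers, led by *Slc1a3* and *Olig2*, summed to 3143 to 3428 CPM for NPC, 1471 to 1548 for NPC(+), 81.0 to 85.2 for NSC and 44.5 to 65.4 for NR, and were 0 higher and 3 lower of 4 in NR against NSC (1 higher and 2 lower in NPC(+) against NPC, 1 and 3 in NSC, 1 and 3 in NR). Genes of these lists near the floor in NPC and NPC(+), such as *Sox17*, *Cdh5* and *Trp63*, could pass the filter only through NSC and NR. Their counts against NPC support nothing. The part of these lists in the members' levels was not tested.

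**Figure D5:**
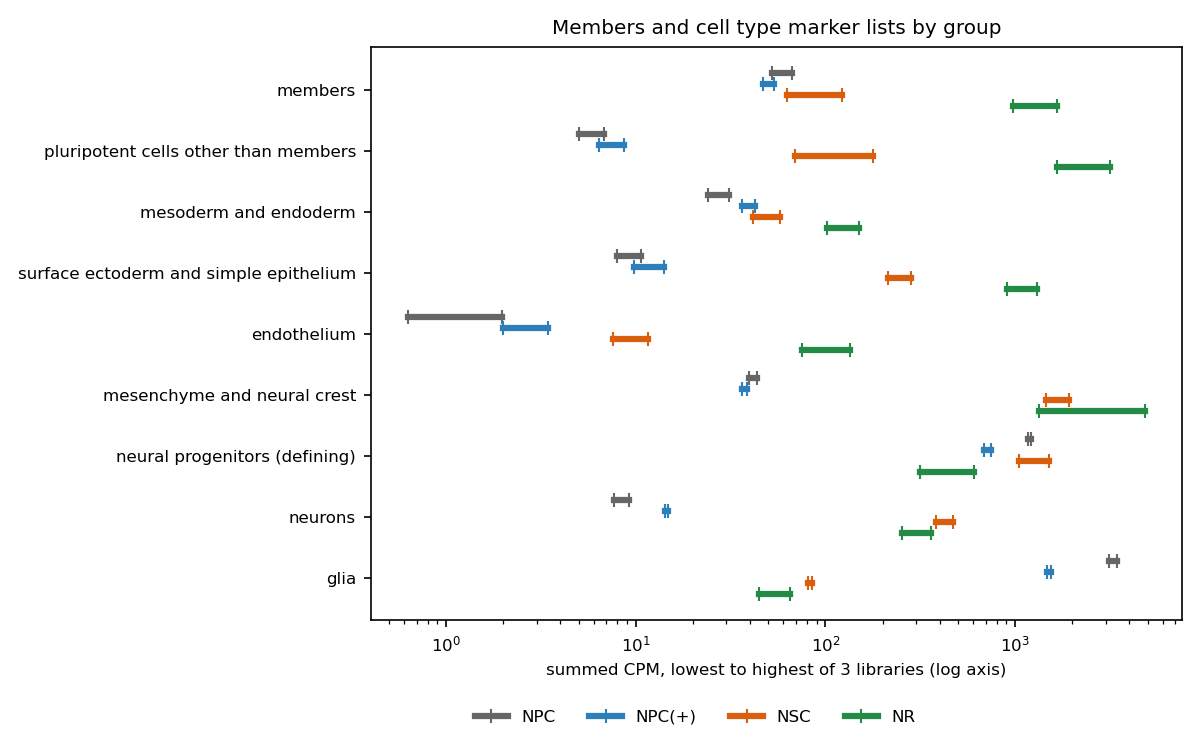
Summed CPM of the members and of 8 marker lists (log axis), drawn from the lowest to the highest of the 3 libraries of each group. The members and the other pluripotency markers are highest in NR, the neural progenitor markers are lower in NR (315 to 604 CPM) than in NSC (1046 to 1504), and the glia markers are highest in NPC.

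In NPC(+) against NPC none of the 12 other pluripotency markers passed the test in edgeR in either direction (0 higher, 0 lower), and the lists of epithelium and mesenchyme had 0 and 0 as well. All of these counts were also 0 at an unadjusted p below 0.05. Most of the 12 markers, and several genes of the other lists, were near the floor in both groups. Their SEs were wide, as for *Fgf4* (log2 fold change -1.63, SE 2.40) and *Dppa2* (1.15, SE 1.61). The test could hardly have called such genes, so counts of 0 do not show that they were unchanged. Other lists held called genes: *Gsc*, *Foxa2* and *Cdx2* of mesoderm and endoderm, *Tek* of endothelium and *Dcx* of neurons were higher. *Cdx2* had 0 counts in NPC and at most 2 in an NPC(+) library. Of the naive-state genes outside the members *Zfp57* was higher and *Tet2* lower. Among the glia markers *Slc1a3* and *Olig2* were lower, and *Gfap* did not pass the test, with a log2 fold change of 0.40. *Aqp4* was higher on at most 1 count in an NPC library and 4 in an NPC(+) library (means of 0.0199 and 0.321 CPM, adjusted p = 0.0304, edgeR quasi-likelihood F test). Of the neural progenitor markers *Sox1* and *Nes* were higher and *Sox2*, *Pax6* and *Fabp7* lower. The part of any of these in the fall of *Klf4* and the rise of *Klf2* was not tested.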

How the data were processed

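RNA was purified with a PicoPure kit, and cDNA was made with SMART-Seq v4 and turned into libraries with a MicroPlex kit. The authors deposited whole-number counts per Ensembl gene, without normalization, in 12 columns, all used. The submitters' processing notes name STAR 2.6, RSEM 1.1.14 and the mm10 build, with no role given, so whether the counts are rounded estimates is not stated, nor is the strand setting or how shared reads were assigned. Reads of overlapping genes may thus not be told apart, but these were low: *Tbx3os1*, antisense to *Tbx3*, held at most 14 counts in a library and those within *Tfcp2l1* at most 3. Groups and replicate numbers came from the labels. The study states that replicates came from separate days and from separate clonal lines. No replicate pair agreed within sampling noise (lowest chi-square per degree of freedom 1.59).

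Counts were scaled by TMM, filtered with filterByExpr by group and tested with glmQLFit and glmQLFTest in edgeR 4.0.16 (limma 3.58.1, R 4.3.3) over all 12 libraries, with no block and a prior count of 0.125. Benjamini-Hochberg adjustment of p covered 17003 genes, and a gene was called at an adjusted p below 0.1 and a p below 0.05, after the thresholds of the study. Its 4-fold threshold was kept as a second rule. The SE of a log2 fold change was its size over the root of its F statistic. The 95% intervals of log2 fold changes were built from this SE with a normal distribution. With so few libraries they are somewhat too narrow, and they can leave out 0 where the F test did not pass. Exact 95% counting intervals were given where a group held 5 counts or fewer in all. Correlations used log2 CPM with a prior count of 2. Coordinates and exon lengths came from the GENCODE annotation of GRCm38, symbols for 45143 of the 45706 genes, and neighbours were genes with a mean above 3 log2 CPM. DESeq2 1.42.0 served as an alternative. Tables and plots used matplotlib 3.10.9, pandas 2.3.3 and scipy 1.17.1 under Python 3.11.15.

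The members and gene lists were chosen with earlier results of these data known, and the octamer and Sox motifs were shortened after the sequences were seen. Genes named beyond the members are those of the lists and, for each member, the 3 with the highest correlation. Tested on simulated data with 200 of 17003 genes changed, the fit of NPC(+) against NPC called 58.5%, 81% and 92% of the changed genes at log2 fold changes of 1, 2 and 3, with 9 to 16 false calls, and that of NR against NSC 72%, 95.5% and 97%, with 19 to 32. Each gene was simulated at its mean level over all 12 libraries. These rates therefore do not hold for members near the floor in NPC and NPC(+). Same-numbered libraries of NSC and NR deviated together from their group means (correlations 0.229, 0.490 and 0.296 over genes for replicates 1, 2 and 3). The highest correlations with a library of another number were 0.186, -0.366 and 0.301. Only replicate 2 thus stood clearly apart, and whether the numbers pair these libraries was not settled. In the other comparisons no such correlation passed 0.1. As alternatives, the Wald test and the size factors of DESeq2 were run, and scaling by upper quartile, no low-count filter, a prior count of 2, the replicate number as a block, fits of only the 2 groups compared, libraries thinned to 3407066 counts, other thresholds, and the omission of each library.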

Additional observations from a re-analysis of the deposited data

How the results depend on the processing

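Of 60 fold changes, the 10 members in 6 comparisons, 42 kept their direction and their side of the threshold under every alternative that could be fitted (22, or 21 for 7 fold changes of genes that failed the filter with only 2 groups fitted), and 14 changed their call under at least 1. In 5 the direction turned, without passing the test on the other side. *Tfcp2l1* in NPC(+) against NPC became 0.20 with thinned libraries and ran from -0.77 to 6.19e-04 when single libraries were left out. Such omissions gave -2.74 to 3.49 for *Prdm14* in the same comparison, -0.51 to 0.10 for *Tbx3* in NSC against NPC, -0.22 to 0.40 for *Klf4* in NR against NPC and -0.0102 to 0.48 for *Esrrb* in NSC against NPC(+). The number of members higher in NPC(+) than in NPC, 1, became 3 with no low-count filter, 3 with only these groups fitted, 2 with the replicate block and 0 with a fold change over 4 required. The fold threshold left 5 of 8 members higher in NSC than in NPC, 0 of 1 lower there, and 5 of 8 higher in NSC than in NPC(+). The number lower in NSC than in NPC(+), 0, became 1 (*Tbx3*) with no low-count filter, with the replicate block, with only these groups fitted and with thinned libraries, and ran from 0 to 1 when single libraries were left out. The cause of these changes was not tested. The block changed no other count of members. Over all genes the fold threshold took the calls of NPC(+) against NPC from 3676 higher and 3856 lower to 658 and 327, and those of NR against NSC from 5017 and 4394 to 1248 and 20. For *Nanog*, *Tfcp2l1*, *Zfp42*, *Nr0b1* and *Prdm14* the counts in NPC and NPC(+) were too few to exclude a 2-fold difference between these groups. The 95% intervals of *Esrrb* (-0.11 to 1.97), *Tbx3* (-0.17 to 1.23) and *Klf5* (-1.03 to 0.48) on the log2 scale did not exclude a 2-fold difference either. With 3 libraries a group, p values of the main fit set a difference against a spread estimated over all 12 libraries. Those of NPC(+) against NPC thus also depend on the spread within NSC and NR.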
